A study of Mus musculus with 64 samples.

Results

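Trem2 signalling and lipid handling in sorted mouse microglia was followed through 8 genes, Trem2, Tyrobp, Apoe, Lpl, Abca1, Abcg1, Pla2g7 and Apod. They were taken by name from the deposited table of 5647 genes, and all 8 of 8 were found there. The choice was by name and not by a threshold on their values. The study had already named Lpl and Apod among genes that rose with age in these libraries. A rise of either gene here is therefore not an independent result. The libraries came from C57BL/6J mice, an inbred laboratory strain, with 1 mouse per library and 64 libraries in 17 groups. Females given PBS numbered 4 at 3 months of age, 2 at 6 months, 3 at 9 months, 4 at 12 months, 5 at 14 months, 5 at 16 months and 3 at 24 months. Males given PBS numbered 4 at 3 months, 4 at 6 months, 4 at 9 months, 2 at 12 months, 4 at 16 months, 5 at 19 months and 4 at 24 months. Females given lipopolysaccharide (LPS, a cell wall component of Gram-negative bacteria that activates Toll-like receptor 4) were 3, 14 and 24 months old (3, 5 and 3 mice), were injected once with 0.5 mg per kg body weight and were killed 2 h later. No transgene or engineered allele is named for any group. The PBS females of 3, 14 and 24 months served both the age series and the LPS comparisons. Cells were sorted as live, CD11b-positive with low CD45 from whole brains without the cerebellum, so that the sort rests on surface markers shared by other myeloid cells.

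TREM2 is a receptor of microglia and other tissue macrophages that binds phospholipids, lipoproteins and apolipoproteins, and it signals through the adaptor TYROBP (DAP12), which recruits the kinase SYK. Lipid taken up by phagocytes is broken down in lysosomes, stored in droplets or handed to apolipoproteins by the transporters ABCA1 and ABCG1, whose genes are targets of the liver X receptors (LXR). The same genes are known for the state called disease-associated microglia, in which Apoe and Tyrobp, and later Trem2 and Lpl, are higher in microglia around amyloid plaques.

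The value of a gene in a library was a batch-adjusted, FPKM-based number, in most cases a whole number, so that levels of different genes are compared per transcript length. Over the 53 PBS libraries the 8 genes fell into 3 ranges. Apoe, which encodes the main lipoprotein particle protein of the brain, had a mean value of 5444 and was 7th highest of 5647 genes. Tyrobp was 30th (mean 1751) and Trem2 was 50th (mean 1029). Abcg1 was 387th (mean 171), Pla2g7 1497th (mean 51.0) and Abca1 1819th (mean 41.7). Apod and Lpl were near the lower end of the table, at 4554th (mean 14.1) and 4723rd (mean 13.3), where a difference of 1 unit is a large share of the value. None of the 8 was at 0 in any PBS library. The coefficient of variation over PBS libraries was lowest for Trem2 (19.2%) and Tyrobp (19.8%) and highest for Lpl (89.5%), with Apod at 63.1% and Apoe at 55.1%.

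On GRCm38 Trem2 lies on chromosome 17 from 48346401 to 48354147, Abca1 on chromosome 4 from 53030787 to 53159895 and Apod on chromosome 16 from 31296192 to 31314808. Tyrobp (30413760 to 30417585) and Apoe (19696109 to 19699188) lie on chromosome 7, Abcg1 (31057675 to 31117988) and Pla2g7 (43568098 to 43612201) on chromosome 17, and Lpl (68880491 to 68907448) on chromosome 8. Their promoters were searched for motifs of factors known in macrophages. RefSeq promoters on GRCm38.p6 (mm10 is another name of GRCm38) were matched for 5 of 8 genes (Trem2, Apoe, Abca1, Pla2g7 and Apod), and Tyrobp, Lpl and Abcg1 had no entry. The 250 bases before the start are printed 5′ to 3′ on the gene's strand for 3 of them: Trem2, which was lower after LPS at 24 months, Abca1, an LXR target, and Apod, which was higher with age. Capitals mark the motifs found.
Trem2, chr17:48346151-48346400, plus strand: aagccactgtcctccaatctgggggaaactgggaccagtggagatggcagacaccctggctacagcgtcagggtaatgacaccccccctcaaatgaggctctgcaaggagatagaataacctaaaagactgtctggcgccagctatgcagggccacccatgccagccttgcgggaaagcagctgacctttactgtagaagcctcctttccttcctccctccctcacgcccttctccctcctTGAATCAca
Abca1, chr4:53159896-53160145, minus strand: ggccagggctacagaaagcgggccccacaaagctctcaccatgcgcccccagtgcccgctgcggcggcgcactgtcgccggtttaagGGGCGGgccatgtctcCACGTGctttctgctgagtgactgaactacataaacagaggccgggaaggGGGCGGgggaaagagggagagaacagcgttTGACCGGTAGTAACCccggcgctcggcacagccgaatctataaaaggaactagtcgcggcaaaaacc
Apod, chr16:31314809-31315058, minus strand: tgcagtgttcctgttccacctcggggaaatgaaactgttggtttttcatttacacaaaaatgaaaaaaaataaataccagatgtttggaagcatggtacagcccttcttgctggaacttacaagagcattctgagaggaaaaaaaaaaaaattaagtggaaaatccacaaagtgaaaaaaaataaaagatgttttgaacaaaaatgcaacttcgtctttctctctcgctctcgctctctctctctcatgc
Both strands of the 250 bases were searched for an LXR direct repeat (AGGTNA and GGTCA with 5 free bases between them) and the same without its first base, GAGGAAGT (PU.1, a lineage factor of myeloid cells), TGANTCA (AP-1), CACGTG (E-box), an NF-kB motif (GGGA and TTTCC with 1 free base between them) and GGGCGG (SP1). The shorter LXR repeat was added after the Abca1 sequence had been read. Abca1 held that repeat once on the opposite strand, from 67 to 53 bases before the start, 1 E-box from 147 to 142 bases before it and 2 SP1 matches. Of 32851 promoters of this length 0.177% held the shorter repeat, 0.0791% the longer one, 6.02% an E-box and 32.7% an SP1 match. Trem2 held an AP-1 match from 9 to 3 bases before its start, as did 6.75% of all promoters. Pla2g7 held 1 SP1 match. Apod and the 3 listed starts of Apoe held none of these letters, and no member held the PU.1 or NF-kB letters, which were in 2.44% and 0.356% of promoters. No motif overlapped another in these windows, and a match describes the sequence alone.

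Several facts of the whole series bear on the values below. The 13 microglial marker genes summed to between 17818 and 32144 over all libraries and were highest in the 3-month PBS groups and 9-month males. Markers of other cells were also measured and moved with age. The 13 measured neutrophil genes summed to 3269 to 8561.9 in 24-month females and 7057 to 18677 in 3-month females, and to 5699 to 10630 in 24-month males and 2844 to 4728 in 3-month males, and they reached 32186 in a male of 16 months. The 3 measured T and NK cell genes (Cd3g, Ms4a4b, Nkg7) summed to 183 to 285 in 24-month females and 24 to 36 in 3-month females, and to 88 to 165 in 24-month males and 16 to 31 in 3-month males. The 10 border-associated macrophage genes summed to 631 to 905 in 24-month females and 652 to 811 in 3-month females. The part of these cells in any result was not tested. In sorted bulk samples fewer cells of a type and less RNA per cell cannot be told apart. The 10 genes listed to check LPS (Tnf, Il1b, Ccl3 and others) summed to 2405 to 2712 after LPS and 783 to 1055 after PBS at 3 months, without overlap. At 14 months they summed to 2040 to 3663 after LPS and 1502 to 2667 after PBS, and at 24 months to 1509 to 2727 after LPS and 1257 to 1680 after PBS, with overlap at both ages.

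The sex labels could not be verified from these values. Eif2s3y, a Y-linked gene and the only one of 5 sex-linked genes in the table, was above 0 in every library. It lay between 6 and 11 in PBS females of 6 to 16 months and between 27 and 34 in males of 3, 6, 12 and 16 months, but between 16 and 41 in 3-month PBS females and between 8 and 16 in 24-month males. It reached 27 in 24-month PBS females and 35 in 24-month LPS females, 1 male of 9 months had 9 and the lowest males of 19 months had 10. Groups are therefore named by their labels. Each result was refitted with the 51 libraries in which Eif2s3y lay under 20 in females and at 20 or more in males, a setting chosen after the data were seen, which left 1 of 4 females of 3 months and no male of 24 months. Libraries also differed in the way that the table was filled. In 21 libraries no value lay between 0 and 1, and these were all 5 females of 16 months, both males of 12 months, all males of 16 and 24 months, 4 of 5 males of 19 months and 2 of 4 males of 3 months. Among males this trait moved with age, and among females it marked the 16-month group alone. Batches are not named in the sources used here.

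Apod, a lipocalin that carries arachidonic acid and sterols and is made in the ageing brain by several cell types, was the member that rose with age in both sexes. In males its values were 27, 9, 18 and 25 at 24 months, against 3, 8, 3 and 3 at 3 months, so that all 4 old mice were above all 4 young ones. The mean was 19.8 ± 8.1 at 24 months and 4.2 ± 2.5 at 3 months (SD, n = 4 each), and the difference was 1.98 on the log2(value + 1) scale (SE 0.43, limma with a trended variance, adjusted p = 0.0069 over all genes). At 16 months the male values were 18, 12, 21 and 31, again all above those of 3 months, with a difference of 2.06 (SE 0.43, limma adjusted p = 0.0023). At 19 months they were 19, 17, 13, 29 and 4, and 1 of 5 fell within the range of the 3-month males, with a difference of 1.61 (SE 0.41, limma adjusted p = 0.023). That call was lost without replicate 1, 2 or 4 of the 19-month males or replicate 1, 3 or 4 of the 3-month males (adjusted p up to 0.093) and in the libraries in which Eif2s3y went with the label (adjusted p = 0.060). Males of 6 months (12, 4, 3 and 6), 9 months (9, 8, 5 and 5) and 12 months (16 and 10) did not pass the test against 3 months. The slope over all male ages was 1.19 on the log2 scale per 12 months (limma adjusted p = 2.8e-04).
In females Apod was 25, 19, 23, 18 and 26 at 14 months, against 6, 4, 15 and 4 at 3 months, with no overlap and a difference of 1.66 (SE 0.41, limma adjusted p = 0.025). This call was lost without replicate 1, 2 or 4 of the 3-month females, with adjusted p up to 0.099, and in the 51 libraries in which Eif2s3y went with the label (adjusted p = 0.79). At 24 months the female values were 47, 18 and 12, 1 of them inside the range at 3 months, and the difference of 1.65 had an adjusted p of 0.059 (limma). Females of 9 months ranged from 3 to 23 (3, 19 and 23), those of 12 months from 12 to 19 and those of 16 months from 9 to 17. The female slope was 0.96 per 12 months (limma adjusted p = 0.023), and the call was lost without replicate 1 of the 24-month females or replicate 1, 2 or 4 of the 3-month females (adjusted p up to 0.093). In the 51 libraries in which Eif2s3y went with the label the female slope had an adjusted p of 0.036 and the male slope one of 4.5e-04 (limma).
All male Apod calls were lost in the libraries that hold no values between 0 and 1. There the difference at 24 months was 1.68 (limma adjusted p = 0.25), and 3-month males kept 2 of 4 libraries. The 7 measured monocyte genes summed to 490 to 1469 at 16 months, 485 to 876 at 19 months and 455 to 737 at 24 months in males, all above the 196 to 291 at 3 months. The T and NK cell sum was 115 to 173 at 16 months, 16 to 104 at 19 months and 88 to 165 at 24 months, and at 19 months it overlapped the 16 to 31 at 3 months. The part of these cells in the Apod result was not tested. Over all genes, 2.85% of genes passed at 24 against 3 months in males (6.29% at 16 months and 3.05% at 19 months), and 9.56% passed for the male slope. In females 3.31% passed at 14 against 3 months, 2.09% at 24 against 3 months and 4.53% for the slope. No difference between the female and the male response at 24 against 3 months passed the test (interaction −0.33, 95% interval −1.66 to 1.01, limma adjusted p = 0.93).

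**Figure D1:**
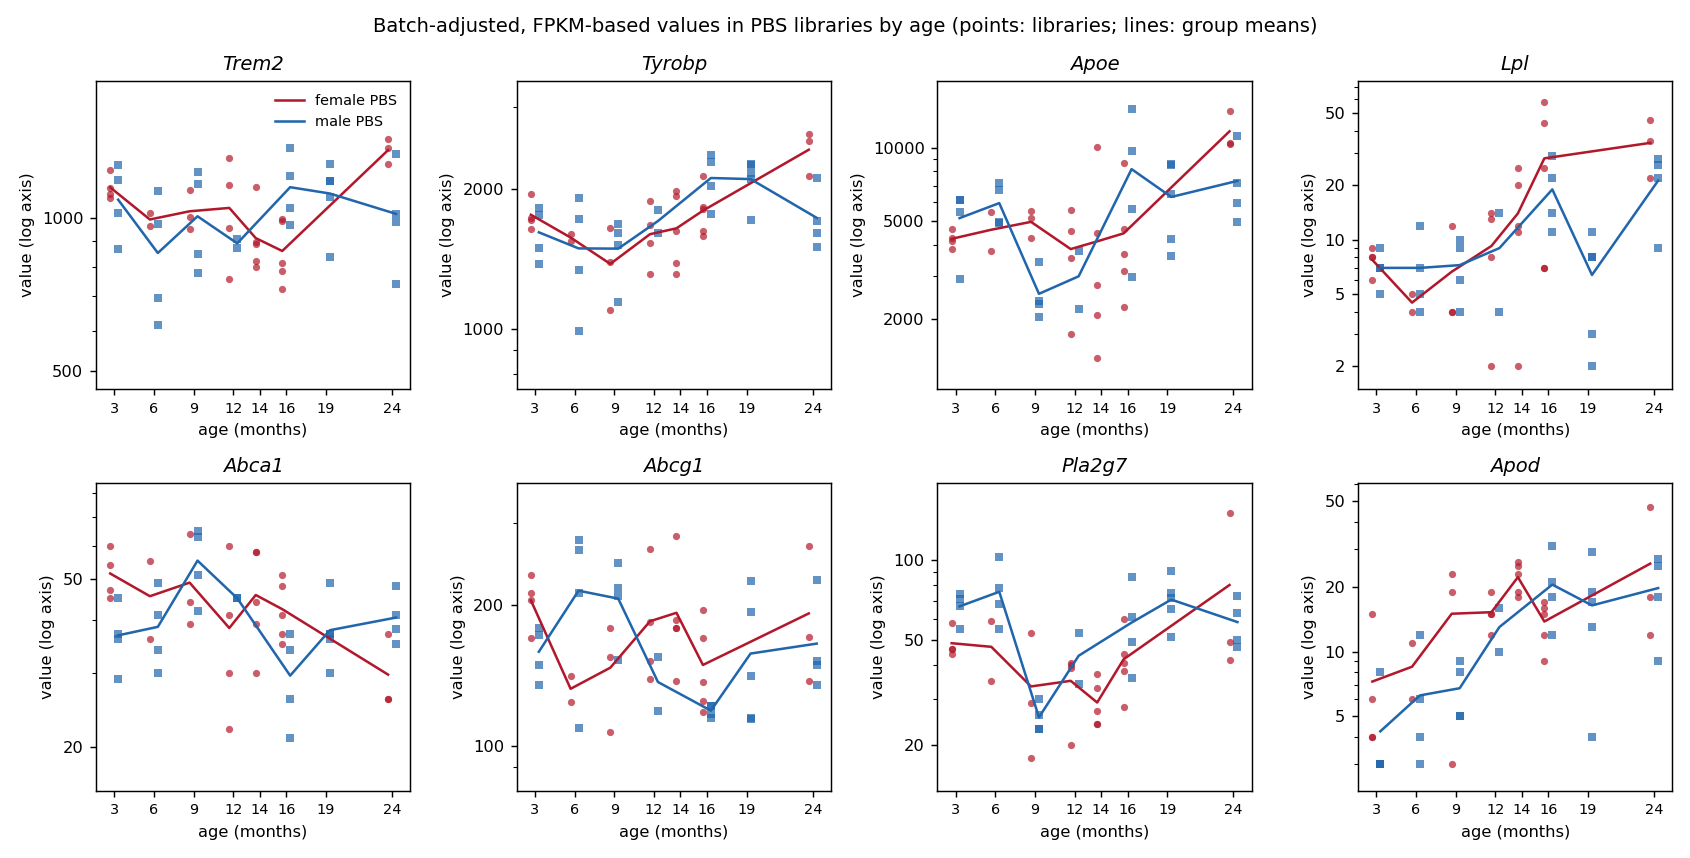
Values of the 8 genes in PBS libraries against age in months on a log axis, with females in red and males in blue, each point 1 mouse and each line through the group means. Apod lies lowest at 3 months in both sexes (means 7.2 and 4.2), Apoe of 24-month females lies between 10387 and 14150, and Pla2g7 of 9-month males lies between 23 and 30.

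Lpl, the lipoprotein lipase that frees fatty acids from triglyceride-rich particles, also rose with age in females by its slope. Its values were 22, 35 and 46 in 24-month females and 8, 6, 9 and 8 in 3-month females, with no overlap. At 16 months it spread from 7 to 58 (7, 7, 58, 44 and 25) and at 14 months from 2 to 25. The spread within ages was not tested. The slope was 1.36 on the log2 scale per 12 months (limma adjusted p = 0.019), and the call was lost without replicate 3 of the 24-month females (adjusted p = 0.051) and in the 51 libraries in which Eif2s3y went with the label (adjusted p = 0.064). Against 3 months the 24-month difference of 1.97 (SE 0.66) had an adjusted p of 0.10 (limma).
In males Lpl passed the test over all ages (limma F-test over 6 differences, adjusted p = 0.017). The call was lost with all 17 groups in 1 fit (adjusted p = 0.063), in libraries in which Eif2s3y went with the label (0.090) and in those without values between 0 and 1 (0.27). It was 26, 28, 9 and 22 at 24 months, against 9, 7, 5 and 7 at 3 months, and 22, 11, 14 and 29 at 16 months. At 19 months it was 3, 8, 8, 11 and 2, spanning the range of the 3-month males, so that the male course was not a steady one. The single differences were 1.39 at 24 months (adjusted p = 0.086) and 1.25 at 16 months (adjusted p = 0.079), neither past the threshold, and the slope of 0.61 per 12 months had an adjusted p of 0.11 (limma).

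Apoe, the apolipoprotein that microglia load with cholesterol, was highest in the oldest females. It was 14150, 10480 and 10387 at 24 months, against 4174, 3873, 4661 and 4260 at 3 months, without overlap, and the group means were 11672 ± 2146 (n = 3) and 4242 ± 325 (n = 4, SD). The difference was 1.45 on the log2 scale (SE 0.46, 95% interval 0.51 to 2.38, limma adjusted p = 0.079), which missed the threshold. Between these ages the females spread widely, with 1376 to 10040 at 14 months and 2225 to 8628 at 16 months. The 5 females of 16 months were all libraries without values between 0 and 1, and no 24-month female was. Age and this trait cannot be told apart between those groups. Set against 16 months, a comparison chosen after the levels were seen, the 24-month values all lay above and the difference was 1.53 (SE 0.44, limma adjusted p = 0.045), a call that was lost when any 1 of 13 of the 26 female PBS libraries was left out (adjusted p up to 0.16) and under both scalings between libraries (adjusted p of 0.086 and 0.081).
In males Apoe passed the test over all ages (limma F-test, adjusted p = 0.020). The call was lost without replicate 1, 2 or 4 of the 9-month males (adjusted p up to 0.071). It was also lost in the libraries without values between 0 and 1 (limma adjusted p = 0.62). Those libraries hold no male of 6 or 9 months, so the 9-month values could not be tested within them. The values were lowest at 9 months (2295, 2371, 3409 and 2037) and at 12 months (2189 and 3774), against 6144, 6132, 5443 and 2910 at 3 months, so that 3 of 4 males of 9 months lay below every 3-month male. The single difference at 9 months was −1.0 (SE 0.36, limma adjusted p = 0.29). At 16 months the males ranged from 2975 to 14418, and at 24 months they had 11171, 4981, 7190 and 5944, a difference of 0.50 from 3 months with a 95% interval of −0.24 to 1.24.

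Trem2 followed a shallow course with a late rise in females. The 3-month females had 1093, 1114, 1141 and 1238, the 16-month females 983, 786, 993, 723 and 814, and the 24-month females 1368, 1427 and 1276. The 16-month values were all below the 3-month ones, with a difference of −0.42 (SE 0.14, limma adjusted p = 0.046) whose fold was under 1.5. The 24-month values were all above both, and the difference from 16 months was 0.67 (SE 0.15, limma adjusted p = 0.018), a comparison chosen after the levels were seen in which 3.95% of all genes passed. The call was lost without replicate 1 or 2 of the 24-month females (adjusted p up to 0.085), in the 51 libraries in which Eif2s3y went with the label (adjusted p = 0.087), and under both scalings between libraries, where the difference was 0.50 and 0.49 (the median of all genes was 0.16 unscaled). The oligodendrocyte genes summed to 1577 to 1815 in 24-month females and 850 to 1192 in 16-month females, and the T and NK cell genes to 183 to 285 in 24-month females and 37 to 145 in 16-month females, and their part in the Trem2 and Apoe differences was not tested. All 5 females of 16 months, and none of 3 or 24 months, were libraries without values between 0 and 1. Age and this trait cannot be told apart in the differences of 16 from 3 and 24 from 16 months. Against 3 months the 24-month Trem2 difference was 0.24 (95% interval −0.08 to 0.57, limma adjusted p = 0.43).
In males Trem2 did not pass in any comparison of ages. The values were 1333, 740, 1015 and 980 at 24 months, against 1183, 1267, 869 and 1019 at 3 months, and they overlapped, with a difference of −0.11 (95% interval −0.51 to 0.30).

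Tyrobp, the adaptor of TREM2 and of several other receptors, had its highest values in old females without passing both thresholds. It had 2528, 2618 and 2128 in 24-month females, against 1710, 1643, 1734 and 1947 in 3-month females, without overlap and with a difference of 0.46 (SE 0.16, adjusted p = 0.11). The F-test over female ages had an adjusted p of 0.026 (limma) with a largest fold of 1.38. In males it was 2358, 2283, 1767 and 2026 at 16 months, against 1760, 1820, 1377 and 1493 at 3 months, a difference of 0.39 (adjusted p = 0.20), and 0.10 at 24 months. Within the PBS groups Trem2 and Tyrobp varied together over the 53 libraries (r = 0.73 of the deviations from group means), more closely than Trem2 and Apoe (r = 0.51). Trem2 and Abca1 ran in opposite directions (r = −0.63). These are descriptions over libraries that share the batch adjustment.

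Pla2g7, a secreted phospholipase that breaks down platelet activating factor and oxidized phospholipids, had its clearest change in males of 9 months. The values were 30, 26, 23 and 23 at 9 months, against 74, 67, 71 and 55 at 3 months, with no overlap. The means were 25.5 ± 3.3 at 9 months and 66.8 ± 8.3 at 3 months (SD, n = 4 each), and the difference was −1.35 (SE 0.22, limma adjusted p = 0.011). Only 2 of 5647 genes (0.0354%) passed at 9 against 3 months in males, and Pla2g7 was 1 of them. Males of 6 months had 68, 102, 78 and 55, and the difference of 9 from 6 months was −1.51 (SE 0.22, limma adjusted p = 0.0019, 0.708% of genes called), again a comparison chosen after the levels were seen. No male of 9 months was among the libraries without values between 0 and 1, so this result could not be set within them. The 13 neutrophil genes summed to 1380 to 1929 in the 9-month males and 2844 to 4728 in the 3-month males. The 7 measured monocyte genes summed to 99 to 161 in males of 9 months, 168 to 229 at 6 months and 196 to 291 at 3 months. The part of these cells in the result was not tested. The males of 16, 19 and 24 months had means of 58.0, 70.8 and 58.2 and did not differ from 3 months past the threshold. The call at 9 against 3 months was lost without replicate 1, 2 or 3 of the 3-month males or replicate 3 or 4 of the 9-month males (adjusted p up to 0.083) and with all 17 groups in 1 fit (adjusted p = 0.060), and that at 9 against 6 months was kept without any 1 library.
In females Pla2g7 was 18, 53 and 29 at 9 months, against 58, 44, 46 and 46 at 3 months, and these overlapped (−0.65, adjusted p = 0.29). It was lowest at 14 months (27, 24, 33, 37 and 24), all below the 3-month females, with a difference of −0.73 (adjusted p = 0.15). At 24 months 1 mouse of 3 stood apart (150, against 49 and 42 in the others of its group).

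Abca1 and Abcg1, the transporters that hand cholesterol to lipid-poor apolipoprotein and to HDL-like particles, did not pass in any age comparison. Abca1 was 26, 26 and 37 in 24-month females, against 45, 60, 47 and 54 in 3-month females, without overlap and with a difference of −0.79 (SE 0.27, 95% interval −1.33 to −0.24, limma adjusted p = 0.10). In males it was 41, 48, 35 and 38 at 24 months, against 45, 29, 36 and 37 at 3 months, with a difference of 0.14 (95% interval −0.25 to 0.54). The interaction of sex and age for Abca1 was −0.93 (SE 0.33, adjusted p = 0.45). In 9-month males Abca1 was 51, 63, 42 and 65, and the F-test over male ages had an adjusted p of 0.047 (limma) with the largest fold at 1.49, just under the threshold. Abcg1 ranged from 107 to 281 over PBS libraries, and its slope with age did not pass in females (limma adjusted p = 0.97) or males (limma adjusted p = 0.415). It had 171, 138 and 267 in 24-month females, against 212, 232, 205 and 170 in 3-month females (−0.14, 95% interval −0.64 to 0.36). In males it had 135, 226, 149 and 152 at 24 months, against 135, 149, 179 and 173 at 3 months (0.04, 95% interval −0.45 to 0.53).

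At 24 against 3 months as a whole, 0 of 8 members passed in females and 1 of 8 (Apod) in males, where 2.09% and 2.85% of all genes passed by limma. At an unadjusted p under 0.05 with the same fold 4 members passed in females (Apoe, Lpl, Apod and Abca1), where 10.9% of all genes did, and 2 in males (Apod and Lpl), where 7.05% did. The female count depended on the groups that shared the estimate of the spread. With the 24-month and 3-month females alone, or with all 17 groups in 1 fit, the same 4 members passed at the adjusted threshold. The share of all genes that passed in those fits is not given here, so these counts have no background beside them. Over the F-tests for any age, 1 of 8 members passed in females (Apod, with 14.8% of genes) and 4 of 8 in males (Apod, Lpl, Apoe and Pla2g7, with 8.36%). The female Apod call (limma adjusted p = 0.045) was lost without any 1 of 18 of the 26 libraries (adjusted p up to 0.11) and under 4 other settings. In the male libraries without values between 0 and 1 the count was 0. These hold no male of 6 or 9 months, so the 9-month values of Apoe and Pla2g7 were not in that fit. At the other ages against 3 months, limma called 0 members in females of 6, 9, 12 and 16 months, where 0.301%, 2.66%, 9.07% and 9.01% of genes passed and 1, 0, 1 and 2 members did at an unadjusted p under 0.05 with the same fold, beside 8.15%, 12.7%, 16.3% and 14.8% of genes. It called 0 in males of 6 and 12 months, where 0% and 0.903% of genes passed and 0 and 2 members did at an unadjusted p with the same fold, beside 3.21% and 8.48% of genes. The median member difference at 24 against 3 months was 0.47 in females and 0.12 in males, beside −0.02 and 0.10 over all genes.

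Between the sexes, no member passed at any shared age. Females had 11672 and males 7322 as mean Apoe at 24 months (difference 0.73, 95% interval −0.06 to 1.51), and at 9 months females had 4262, 5143 and 5527, against 2295, 2371, 3409 and 2037 in males, with no overlap (1.00, SE 0.39, limma adjusted p = 0.18). Tyrobp had 2528, 2618 and 2128 in 24-month females, against 2112, 1499, 1609 and 1708 in 24-month males, without overlap (0.49, SE 0.17, limma adjusted p = 0.29). Over all genes 0.23% of genes passed at 3 months, 0.159% at 6 months, 1.24% at 9 months, 0% at 12 months, 0.248% at 16 months, 0.0885% at 24 months, 3.61% over all shared ages and 0.0177% for the interaction. At an unadjusted p under 0.05 and the same fold 2 members (Apoe and Abcg1) passed over shared ages and 1 (Abca1) for the interaction, beside 17.7% and 7.05% of genes. The sex comparisons rest on groups in which Eif2s3y went against the label.

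After LPS, Trem2 was the member that fell, and it fell at 24 months. Its values were 844, 1022 and 832 in LPS females of 24 months, against 1368, 1427 and 1276 in PBS females of that age, with no overlap. The means were 899 ± 106 after LPS and 1357 ± 76 after PBS (SD, n = 3 each), and the difference was −0.60 (SE 0.14, 95% interval −0.89 to −0.30, limma adjusted p = 0.012), a fold of 0.661. At 3 months it was 1018, 855 and 918 after LPS and 1093, 1114, 1141 and 1238 after PBS, also without overlap, with a difference of −0.30 (limma adjusted p = 0.15). At 14 months it was 748 to 996 after LPS and 800 to 1151 after PBS, which overlapped (−0.01, 95% interval −0.24 to 0.22). LPS values thus lay between 748 and 1022 at every age. The difference of the responses at 24 and 14 months was −0.59 (SE 0.18, limma adjusted p = 0.096), which missed the threshold.
The Trem2 call at 24 months lay close to the fold threshold. It was lost with the 24-month groups alone (adjusted p = 0.083), in the libraries in which Eif2s3y went with the label (adjusted p = 0.083), with either scaling between libraries, and without replicate 1 or 3 of the LPS females or replicate 2 of the PBS females, while the direction stayed. The T and NK cell genes summed to 28 to 82 after LPS and 183 to 285 after PBS at this age, and the neutrophil genes to 4058 to 16081 after LPS and 3269 to 8561.9 after PBS. The 3 measured oligodendrocyte genes (Cnp, Mag, Trf) summed to 910 to 1151 after LPS and 1577 to 1815 after PBS, and the 2 measured B cell genes to 59 to 76 after LPS and 85 to 186 after PBS, both without overlap. The part of these cells in the result was not tested. The median of all genes at this age was −0.15 unscaled, −0.03 after median-ratio scaling and 0.02 after scaling to the same total.

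Tyrobp was 1711, 1960 and 1375 after LPS at 24 months, against 2528, 2618 and 2128 after PBS, without overlap. Its difference of −0.54 (SE 0.16, limma adjusted p = 0.036) stayed under the fold threshold at a fold of 0.689. Apoe was 4615, 8812 and 4079 after LPS, against 14150, 10480 and 10387 after PBS at 24 months, also without overlap (−1.07, SE 0.42, limma adjusted p = 0.094). At 3 and 14 months Apoe and Tyrobp overlapped between LPS and PBS females except for the Tyrobp values at 3 months, which were 1510, 1604 and 1538 after LPS and 1710, 1643, 1734 and 1947 after PBS (−0.18, limma adjusted p = 0.48).

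The transporters had the opposite sign to Trem2 at 24 months. Abca1 was 48, 62 and 42 after LPS, against 26, 26 and 37 after PBS, without overlap, with a difference of 0.75 (SE 0.25, limma adjusted p = 0.051) that missed the threshold. Under median-ratio scaling and under scaling to the same total it passed and Trem2 did not. At 3 months Abca1 was 38, 50 and 41 after LPS and 45, 60, 47 and 54 after PBS (−0.26, adjusted p = 0.52). Abcg1 was 217, 247 and 219 after LPS at 24 months, against 171, 138 and 267 after PBS (0.30, adjusted p = 0.42). At 14 months it was 145, 119, 96, 93 and 156 after LPS, against 179, 281, 186, 179 and 138 after PBS, with the lowest PBS mouse inside the LPS range and a difference of −0.65 (SE 0.18, limma adjusted p = 0.056). At 3 months it was 165, 143 and 140 after LPS, all below 212, 232, 205 and 170 after PBS (−0.45, limma adjusted p = 0.19). The response of Abcg1 at 24 months minus that at 14 months was 0.95 (SE 0.30, limma adjusted p = 0.098).

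Lpl, Pla2g7 and Apod did not pass after LPS at any age. Lpl was 3, 8, 8, 6 and 5 after LPS at 14 months, against 25, 2, 20, 11 and 12 after PBS, which overlapped (−0.85, limma adjusted p = 0.36). Apod was 9, 17 and 13 after LPS at 24 months, against 47, 18 and 12 after PBS (−0.74, adjusted p = 0.26). Pla2g7 was 58, 54 and 67 after LPS at 24 months, against 150, 49 and 42 after PBS (−0.19, adjusted p = 0.76).
In all, 0 of 8 members passed after LPS at 3 months, 0 at 14 months and 1 at 24 months, where 11.2%, 1.81% and 9.7% of all genes passed by limma. At an unadjusted p under 0.05 with the same fold the counts were 0, 1 and 3, beside 17.3%, 5.99% and 19.8% of genes. No member passed for a difference between the responses of 2 ages, where 0.301% (14 against 3 months), 0% (24 against 3 months) and 1.19% (24 against 14 months) of genes did. The unadjusted counts there were 0, 2 and 3, beside 8.04%, 10.2% and 15.6% of genes. The median member difference was −0.22 at 3 months, −0.14 at 14 months and −0.57 at 24 months, beside −0.14, 0.02 and −0.15 over all genes.

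**Figure D2:**
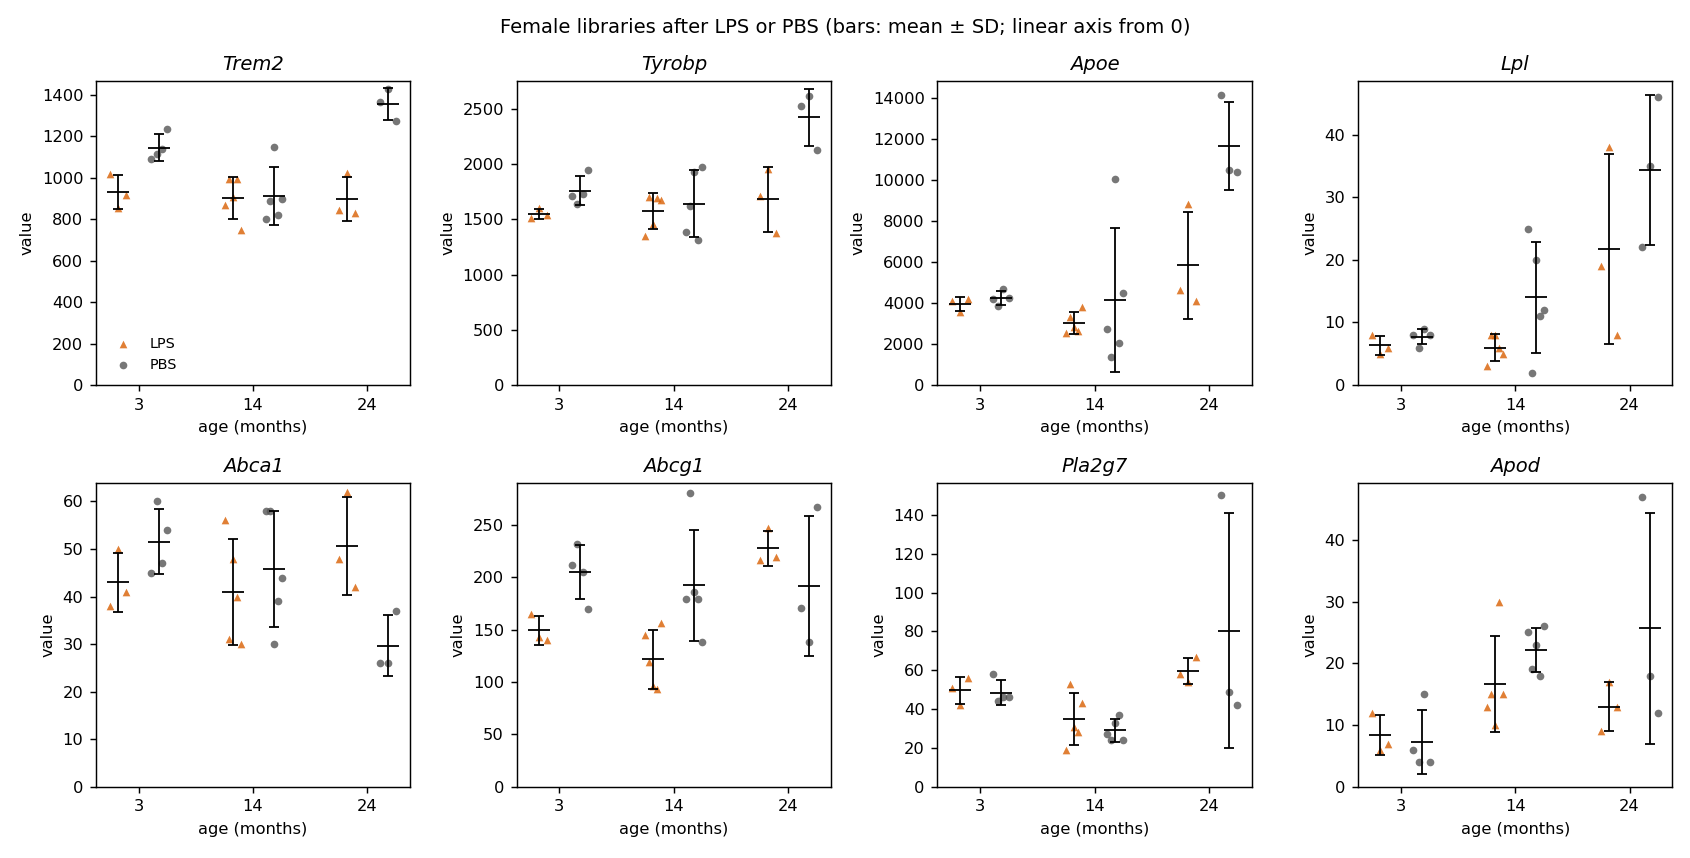
Values of the 8 genes in female libraries after LPS (orange triangles, left) and PBS (grey circles, right) at 3, 14 and 24 months on linear axes from 0, with mean ± SD. Trem2 after LPS lies between 748 and 1022 at each age, below the 1276 to 1427 of PBS females of 24 months.

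**Figure D3:**
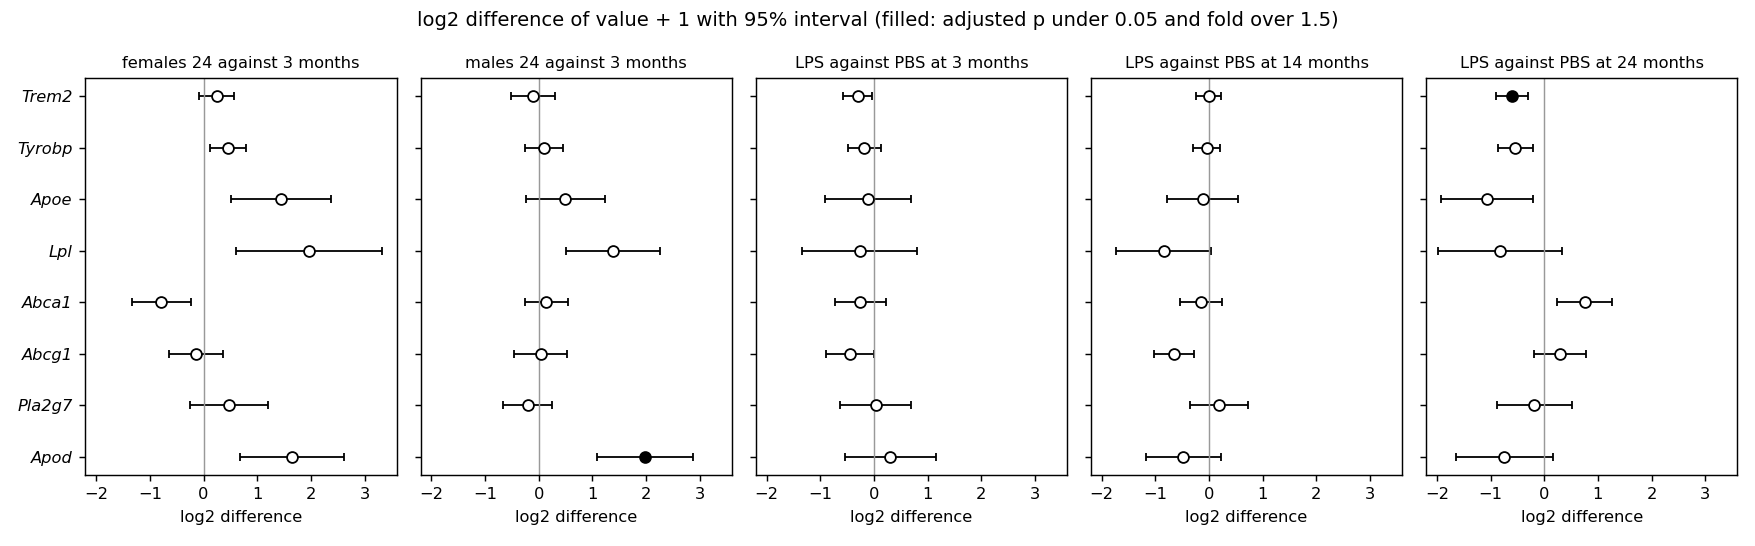
Differences on the log2(value + 1) scale with 95% intervals for 24 against 3 months in females and males and for LPS against PBS at 3 ages, with filled points for genes past both thresholds. Apod in males (1.98) and Trem2 after LPS at 24 months (−0.60) are filled.

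Genes around the 8 members were described by lists, with no test of a list. In 24-month against 3-month females, 3 of 9 stage 1 genes of disease-associated microglia and 7 of 16 measured stage 2 genes rose and none fell, with medians of 0.55 and 0.66, where 2.09% of all genes were called. In males 3 of 9 and 6 of 16 rose, with medians of 0.24 and 0.28, where 2.85% of all genes were called. Over all genes the median was −0.02 in females and 0.10 in males. Spp1, an extracellular matrix protein of phagocytes, had a mean of 367 ± 70.3 in 24-month females (n = 3) and 17.8 ± 5.0 in 3-month females (n = 4, SD), a difference of 4.31 (limma adjusted p = 0.0019). Cst7, a cystatin, rose by 2.59 in females (limma adjusted p = 0.0031) and 2.33 in males. Axl, a receptor for apoptotic cells, rose by 1.67 in females, Clec7a, a lectin, by 2.12 in males, and Fth1, a ferritin subunit, by 0.72 in females and 0.76 in males. H2-D1, an MHC class I gene, rose by 1.18 in females and 0.97 in males. The study had already named Spp1, Cst7, Axl and H2-D1 as rising with age in these libraries. It had also compared its age-dependent genes with those of disease-associated microglia. The rises of these list genes are therefore not independent results. Fth1 was named there among genes negatively correlated with age, whereas it rose here at 24 against 3 months. In the other 8 lists few genes passed at 24 against 3 months. Genes of these lists also passed at other ages. At 16 against 3 months those called were all lower in females and went in both directions in males. Among them were Mylip (−0.89 in females and −0.85 in males) and G0s2 (2.42 in males). Over all genes 9.01% were called there in females and 6.29% in males. In females at 24 against 3 months no measured gene of these other 8 lists passed. They held 23 genes of TREM2-DAP12 signalling, 8 listed as other DAP12-coupled receptors, 13 LXR targets and receptors and 12 cholesterol synthesis genes. They also held 13 genes listed for lipid uptake, 19 for lipid droplets and triglyceride turnover and 17 for lysosomal lipid breakdown. A further 17 were listed for phospholipases and platelet activating factor, with enzymes of prostaglandins and leukotrienes (Ptgs1, Alox5, Hpgd and others) among them. In males at 24 against 3 months Cd300ld, a receptor gene placed here in the list of DAP12-coupled receptors (17.8 ± 4.1 at 24 months and 5.0 ± 2.6 at 3 months, n = 4 each, 1.73, limma adjusted p = 6.8e-04), and G0s2, an inhibitor of triglyceride lipase (36.0 ± 4.3 at 24 months and 14.8 ± 6.6 at 3 months, 1.33, limma adjusted p = 0.048), were the only ones of these 8 lists that passed. Which adaptor Cd300ld uses was not tested. In males the 13 neutrophil genes summed to 2844 to 4728 at 3 months, 9249 to 32186 at 16 months and 5699 to 10630 at 24 months. The 7 measured monocyte genes summed to 196 to 291, 490 to 1469 and 455 to 737 at the same ages. The part of these cells in the Cd300ld and G0s2 differences was not tested.

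After LPS, genes of these lists passed at each of the 3 ages, where 11.2% of all genes were called at 3 months, 1.81% at 14 months and 9.7% at 24 months. At 3 months 5 of 17 genes of the phospholipase and platelet activating factor list fell. Among them was Hpgd, which inactivates prostaglandins, at 108 ± 24.1 after LPS and 212 ± 17.9 after PBS (−0.98, limma adjusted p = 0.0012). Among 13 LXR genes 3 fell, Arl4c (−0.87), Mylip (−0.63), which marks lipoprotein receptors for breakdown, and Abca9 (−0.63), and 2 of 12 cholesterol synthesis genes rose, Pmvk (0.94) and Insig1 (0.85). Of 13 lipid uptake genes Msr1, a scavenger receptor, rose (33.7 ± 5.5 after LPS and 12.5 ± 1.3 after PBS, 1.35, limma adjusted p = 9.3e-04), as did Picalm (0.94), and Bin1 fell (−0.80). Lipa, the lysosomal acid lipase, fell by 0.75, and Slc2a5 of the signalling list fell by 0.62. Of the genes of disease-associated microglia, the stage 1 gene Fth1 (0.89) and the stage 2 genes Lilrb4a (2.03), Spp1 (2.01) and Cd63 (0.68) rose at 3 months and none fell. At 14 months Msr1 was the only gene of the 10 lists that passed (0.91, limma adjusted p = 0.022). At 24 months 2 of 23 signalling partners rose, Grb2 (0.77) and the kinase Lyn (0.64), while Lat2, an adaptor downstream of TREM2, fell (−0.74), as did the phosphatase Ptpn6 (−0.60), named here as the remaining gene of that count. Pltp, a phospholipid transfer protein and LXR target, fell by 1.01, Picalm rose by 1.54, Clu, an apolipoprotein, fell by 2.69 with a mean of 3.38 ± 5.73 after LPS and 16.7 ± 11.6 after PBS, and Acsl1, which activates fatty acids, fell by 0.89. The lysosomal gene Ctsa (−0.64), Pld3 (−0.73) and Pld4 (−0.66), which are phospholipase D family members by name, and the stage 1 genes H2-D1 (−0.86) and Ctsb (−0.59) fell as well. None of 16 stage 2 genes passed at 24 months, with a median of −0.41.

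**Figure D4:**
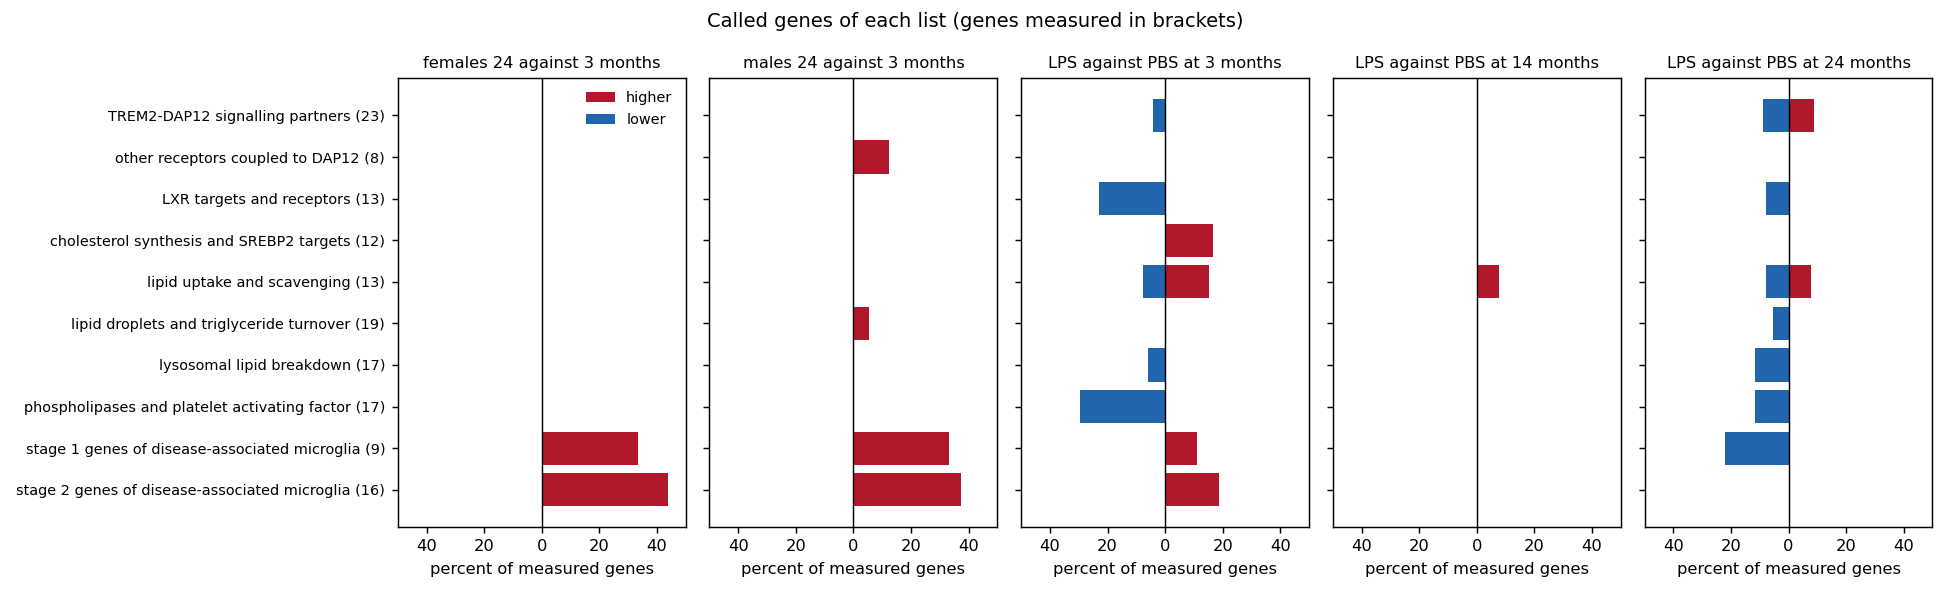
Share of measured genes of each list that passed in 5 comparisons, with higher to the right in red and lower to the left in blue, and the number measured in brackets. With age the bars stand mainly at the lists of disease-associated microglia, 7 of 16 stage 2 genes in females and 6 of 16 in males.

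The genes whose courses were most like those of the members over the 17 group means of log2 values were named by the highest Pearson r, as a description over groups that share the batch adjustment. Trem2 was most like Tmem141 (r = 0.895) and Creg1. Tyrobp was most like Ccl6 (0.939), Cox4i1 and Sec61b, and Apoe was most like Ndufb7 (0.91), Edf1 and Rrp36. Lpl was most like Cd209a (0.907), H2-DMb2 and Slamf9, and Apod was most like Lgals3bp (0.902), H2-D1 and Cd74. Abca1 was most like Cdkal1 (0.937), Frmd4a and Wasf2, and Abcg1 was most like Foxo3 (0.928), Clasp2 and Hsf2. Pla2g7 was most like Bex3 (0.888), Gmfg and Sdhb. Among the members themselves the highest r over group means was between Apoe and Pla2g7 (0.761), followed by Trem2 and Tyrobp (0.655), and the lowest between Tyrobp and Abca1 (−0.638).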

How the data were processed

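Sorted cells gave cDNA from polyadenylated RNA, which was read on the BGISEQ-500 platform. Per the study's methods the authors filtered reads (SOAPnuke), aligned them to the mm10 genome (HISAT2 version 2.0.4) and to genes (Bowtie2 version 2.2.5), and obtained FPKM (RSEM version 1.2.12). They adjusted the values of both sexes for batches with ComBat_seq and removed genes averaging under 10 FPKM. The deposited values are therefore scores, mostly whole numbers (297 are fractional), for 5647 genes, with totals of 408457 to 554459 per library. Read depth is unknown, so no counting interval was computed and no count test was used.

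Samples were grouped by the sex, treatment and age of their titles. log2(value + 1), a scale that understates changes of low genes, was fitted with limma 3.58.1 in R 4.3.3 with a variance trend. Female and male PBS groups were fitted apart, the sexes together over 12 groups and LPS over 6 groups. p-values were adjusted by Benjamini-Hochberg over 5647 genes, and a gene was called past a fold of 1.5 where its adjusted p was also below 0.05 (slopes by p alone). The code was tested on simulated data. Each mouse is 1 library, and p-values measure the spread between mice. Tables were made with Python 3.11.15.

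The 8 members and all lists were chosen with earlier results of these data known. Named genes are the members, up to 3 called genes per list with the largest change at 24 against 3 months and after LPS, and the 3 genes most like each member. A few genes that this rule names are not reported here. Alternatives were pseudocounts of 0.5 and 5, a mean of at least 50, 2 scalings, other variance priors, unadjusted p, fits over other groups, a block for replicate number, males without values between 0 and 1, and leaving out each library. Libraries with the same replicate number in their titles had median residual correlations of 4.26e-05 (females), −0.00444 (males), 0.00218 (both sexes) and 0.0139 (LPS), so these title numbers do not pair them. Comparisons of neighbouring ages and the Eif2s3y setting were added after the data were seen.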

Additional observations from a re-analysis of the deposited data

Results flagged for a closer look

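Of 88 pairs of a gene and a group of 4 or 5 mice, 5 held 1 mouse far from the others of its group, about the 1 in 20 that chance gives. Tyrobp was 1714 in replicate 3 of the 19-month males, against 2100 to 2265 in the others. Apoe was 2910 in replicate 4 of the 3-month males, against 5443 to 6144. Pla2g7 was 58 in replicate 1 of the 3-month females, against 44 to 46, and 20 in replicate 1 of the 12-month females, against 39 to 41. Apod was 8 in replicate 2 of the 3-month males, against 3 in each of the others. None of the 32 tests of a difference between 2 responses passed for a member.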

How the results depend on the processing

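Counts of members called were recomputed under each alternative, and the cause of a change was not tested. Counts of all genes under the settings of this paragraph are not given here. The fit to genes with a mean of at least 50 left out Apod (PBS mean 14.1), Lpl (13.3) and Abca1 (41.7). Apod and Lpl hold every member call for the slopes and for males at 24 against 3 months. The loss of those calls in that fit was therefore fixed beforehand. Over female ages (1 called) there were 4 with all 17 groups in 1 fit, 4 at unadjusted p, 2 with a pseudocount of 5, and 0 without a variance trend, with a robust variance or with libraries whose Eif2s3y went with the label. For females at 24 against 3 months (0 called) there were 4 with all 17 groups, 4 with the 2 groups alone, 4 at unadjusted p and 1 among genes with a mean of at least 50. For the female slope (2 called) there were 4 at unadjusted p, 1 by Eif2s3y and 0 among genes with that mean. Over male ages (4 called) there were 2 among genes with that mean and 0 in males without values between 0 and 1, who include no male of 6 or 9 months. For males at 24 against 3 months (1 called) these settings both gave 0, and a pseudocount of 5, the 2 groups alone and unadjusted p each gave 2. For the male slope (1 called) those first settings gave 0 and unadjusted p gave 3. Between the sexes over shared ages (0 called) unadjusted p gave 2, and for the interaction (0 called) it gave 1. For LPS at 14 months (0 called) unadjusted p and the mean of at least 50 each gave 1. For LPS at 24 months (1 called) there were 0 by Eif2s3y, 0 with the 2 groups alone, 2 with a pseudocount of 5, 2 with a robust variance and 3 at unadjusted p. For the difference of LPS responses unadjusted p gave 2 at 24 against 3 months and 3 at 24 against 14 months, where 0 were called.

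The replicate numbers do not pair the libraries. With the replicate block the count was 0 over female ages, 2 for males at 24 against 3 months and 2 for the male slope.

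Leaving out 1 library at a time, the counts ranged from 0 to 2 over female ages, 0 to 1 for females at 24 against 3 months, 1 to 2 for the female slope, 3 to 5 over male ages, 1 to 2 for males at 24 against 3 months, 1 to 2 for the male slope, 0 to 1 between the sexes, 0 to 0 for the interaction, 0 to 0 for LPS at 3 months, 0 to 1 at 14 months, 0 to 3 at 24 months, and 0 to 0, 0 to 0 and 0 to 1 for the responses at 14 against 3, 24 against 3 and 24 against 14 months. Over all genes the counts were 547 to 982 over female ages and 140 to 294 for the female slope. They were 20 to 172 for females at 24 against 3 months. In males they were 392 to 633 over ages, 472 to 615 for the slope and 90 to 180 at 24 against 3 months. They were 99 to 413 between the sexes and 0 to 3 for the interaction. For LPS they were 331 to 712, 42 to 146 and 203 to 656 at 3, 14 and 24 months. For the responses they were 8 to 30, 0 to 21 and 16 to 182 in the order above. Without single libraries the largest difference over ages ranged from −1.04 to 0.82 for Pla2g7 in females, from −0.48 to 0.65 for Abcg1 in males (0.41, 0.42 and 0.50 in 3 other cases that changed sign) and from −1.20 to 1.15 for Apoe between the sexes (−1.07 in 1 other). It also changed sign for Pla2g7 in females by Eif2s3y (0.89) and for Abca1 in males without values between 0 and 1 (−0.32), where no male of 9 months is left. Read depth is unknown, and Apod and Lpl lie where steps of 1 unit are large.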
